A study of Homo sapiens with 6 samples.

Results

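Transcripts of 10 heat shock genes were followed in heart muscle cells made from WTC11 (an established line of human induced pluripotent stem cells) and kept in one of 2 backbone media. The genes were taken by symbol from the 38557 listed in the count files: HSPA1A, HSPA1B, HSPA8, HSP90AA1 and DNAJB1 of the cytosol, HSPD1 and HSPE1 of mitochondria, and the small heat shock proteins HSPB1, HSPB7 and CRYAB. All 10 were listed and all 10 passed the filter on low counts. The media were RPMI plus B27, a serum-free supplement, and DMEM plus fatty acids, with 3 biological replicates each, numbered 1 to 3 in both. All 6 libraries are from wild-type cells of this 1 line, so the results apply to it alone. The labels do not say whether replicates were separate differentiations, so a p-value here measures only the spread between these libraries. The comparison asks which transcripts differ with the backbone medium.

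Heat shock proteins are chaperones that bind unfolded polypeptides and keep them from aggregating. HSP70 proteins (HSPA1A, HSPA1B and HSPA8) hold and release clients in a cycle driven by ATP, J-domain proteins such as DNAJB1 start that cycle, and HSP90 takes over late-folding clients such as kinases and steroid receptors. In the mitochondrial matrix, HSPD1 (HSP60) forms a folding chamber that HSPE1 (HSP10) caps. Small heat shock proteins work without ATP, and in heart muscle HSPB1, HSPB7 and CRYAB associate with sarcomeres and with filamins or desmin. Heat shock factor 1 induces several of these genes under protein stress through heat shock elements, runs of GAA units in alternating orientation.

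The stretches below are shown because units of this element lie upstream of 7 of the members, and because HSPB7 has a muscle motif in their place. Each is from RefSeq (GRCh38.p14), 5′ to 3′ on the strand of the gene, and ends before the start annotated there. Capitals mark GAANNTTC or TTCNNGAA, both of which read the same on either strand and overlap where 3 units follow each other, and in HSPB7 a site of the MEF2 motif, a motif of muscle transcription factors.
HSPA8, chr11:123062171-123062200, minus strand: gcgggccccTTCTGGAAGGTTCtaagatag
HSP90AA1, chr14:102087104-102087133, minus strand: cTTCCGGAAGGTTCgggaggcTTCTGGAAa
HSPD1, chr2:197500061-197500090, minus strand: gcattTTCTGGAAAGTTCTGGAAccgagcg
DNAJB1, chr19:14518426-14518485, minus strand: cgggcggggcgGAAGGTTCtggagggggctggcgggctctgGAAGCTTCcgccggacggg
HSPA1A, chr6:31815411-31815470, plus strand: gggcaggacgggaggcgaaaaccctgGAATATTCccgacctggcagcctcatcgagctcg
HSPA1B, chr6:31827607-31827666, plus strand: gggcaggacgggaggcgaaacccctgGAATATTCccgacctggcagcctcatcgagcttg
HSPB1, chr7:76302465-76302524, plus strand: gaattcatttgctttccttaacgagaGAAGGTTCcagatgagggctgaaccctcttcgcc
HSPB7, chr1:16018106-16018135, minus strand: atggagaggcCTAAATTTAGctagtagaca

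A 300-base promoter window, of which the last 50 bases follow the start, was found for 9 of the 10 members, all but CRYAB, with 13 windows in all because some genes have several starts. GAANNTTC or TTCNNGAA was found for 7 of these 9 genes, in 8 of their 13 windows, where 13.5% of all 35116 windows in the table hold it. A run of 3 alternating units (GAANNTTC followed after NN by GAA, or TTCNNGAA followed after NN by TTC) was found for HSPA8, HSP90AA1 and HSPD1, in 3 of the 13 windows, where 0.490% of all windows hold one. HSPE1 and HSPB7 had neither form in their windows. The HSPD1 run (197500068 to 197500085) ends 294 bases from the RefSeq start of HSPE1 (197500379), the divergent neighbour of HSPD1. It lies outside the HSPE1 window, which was set by that start. The GENCODE annotation, used below for gene positions, starts HSPE1 at 197499994, so by it the run lies within HSPE1. The MEF2 motif was found for HSPB7, in 1 of the 13 windows, and in 2.99% of all windows. A match describes letters only and is not evidence of binding.

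The libraries held 23232324 to 31035389 gene counts, which were scaled to CPM, the usual per-library unit, with TMM factors that correct for composition. The 10 genes took 0.608% to 0.704% of the gene counts. Their own depth ranged from 253 counts (HSPA1A in RPMI plus B27 replicate 2) to 112909 counts (HSPB7 in RPMI plus B27 replicate 1). How well reads can be given to a single gene differs between the members. The coding sequences of HSPA1A and HSPA1B, both 1926 bases long, differ at 4 positions and share a run of 1709 bases. In GENCODE 29, 69.9% of the 100-base words of the HSPA1A transcript also occur in HSPA1B, and 72.7% of those of HSPA1B occur in other genes, mostly HSPA1A. The annotated gene AL671762.1 also shares 36.5% of the HSPA1B exon on the same strand. The corresponding share was 33.5% for HSPE1 and 15.0% for CRYAB, which overlap HSPD1 and HSPB2 on the opposite strand, and at most 5.06% for the other 6. Reads that align to several places or overlap several genes were set aside in these files, so HSPA1A, HSPA1B and HSPE1 are undercounted to an unknown extent. Both kinds of read made up a larger share in every RPMI plus B27 library than in any DMEM plus fatty acids library. HSPE1-MOB4, a readthrough gene that shares exons with HSPE1, had 0 counts in all 6 libraries. The strand setting of the counting is not given in the sources used here. Reads of overlapping genes on opposite strands, CRYAB and HSPB2 among them, may therefore be mixed or set aside.

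None of the 10 heat shock genes passed an adjusted p of 0.05 between media by edgeR's quasi-likelihood test with Benjamini-Hochberg adjustment over 16107 genes. Of all tested genes 1.36% passed (0.292% in the direction of higher and 1.07% of lower levels with fatty acids). At an unadjusted p under 0.05 there were 2 members, HSPB1 (lower in DMEM plus fatty acids) and HSPA1B (higher), beside 17.7% of all tested genes. The DESeq2 Wald test called 1 member, HSPB1, where it called 7.71% of the genes it adjusted (2.47% higher and 5.24% lower). Limma voom called 0 members and 1.07% of all tested genes (0.217% higher and 0.851% lower). With the replicate number as a block, edgeR called 0 members, while the count over all genes went from 219 to 770 (4.78%, with 1.36% higher and 3.42% lower). Without 1 library, edgeR called 0 members in each of the 6 cases, where it called only 3 to 131 of the 16425 to 16579 genes tested. The media did not overlap in CPM for 4 of the 10 members, HSPB1 and HSPB7 (DMEM plus fatty acids below) and HSPA8 and HSPA1B (above), beside 25.6% of all tested genes. The fitted log2 fold changes (DMEM plus fatty acids relative to RPMI plus B27) ran from -0.76 to 0.50 with a median of 0.12, beside a median of 0.01 over all tested genes. They were above 0 for the 7 cytosolic and mitochondrial members and below 0 for the 3 small heat shock proteins, although CRYAB turned above 0 when libraries were scaled by total counts, and HSP90AA1 and HSPE1 turned below 0 without RPMI plus B27 replicate 1.

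**Figure D1:**
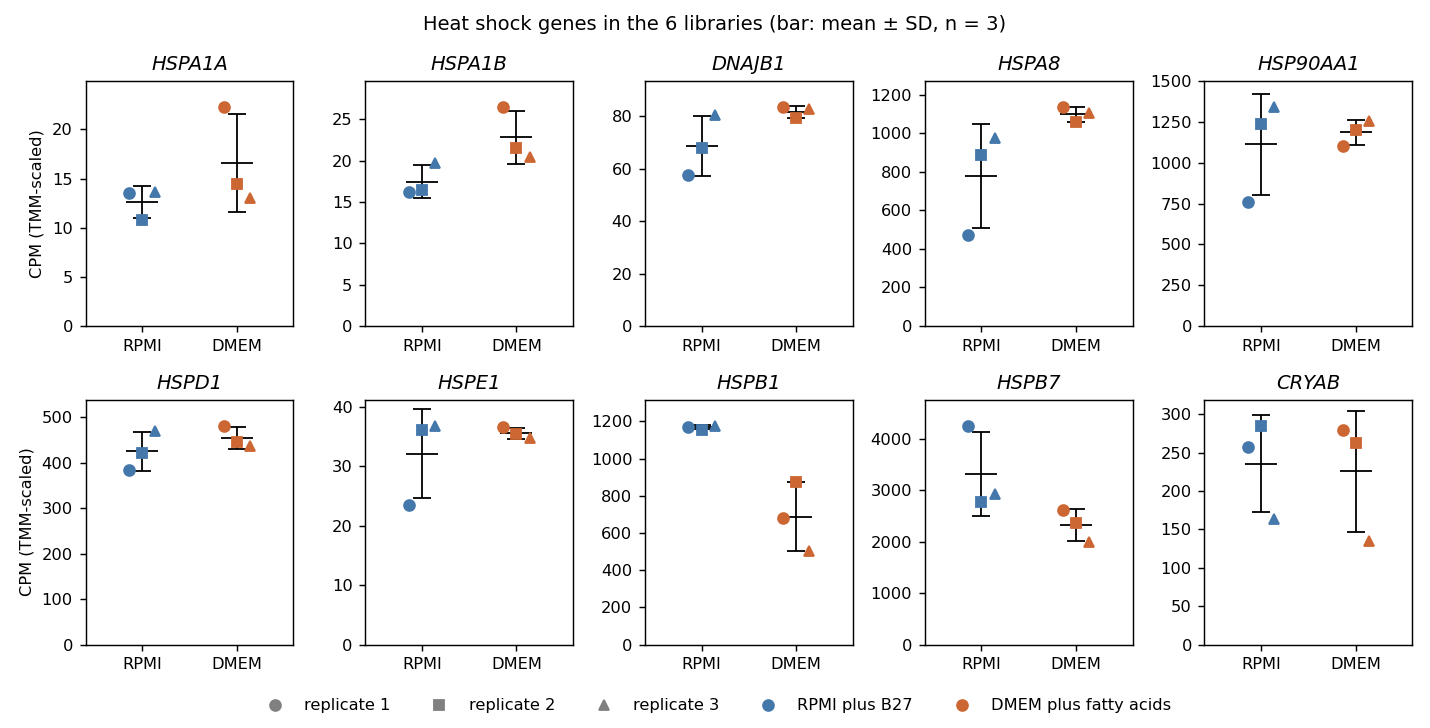
TMM-scaled CPM (vertical axes, from 0) of the 10 heat shock genes in each library, with blue points for RPMI plus B27, orange points for DMEM plus fatty acids, symbols for the replicate number and bars for mean ± SD of 3 libraries. HSPB1 lies between 1156.5 and 1176.5 CPM in the RPMI plus B27 libraries and between 504.3 and 876.8 CPM in the DMEM plus fatty acids libraries, and CRYAB is low in replicate 3 of both media.

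Levels of different genes were compared as CPM per kilobase of transcript, with the length of the principal GENCODE 29 transcript. In RPMI plus B27, HSPB1 (1285 ± 11.5, SD, n = 3) and HSPB7 (1148 ± 281) were highest. HSP90AA1 (330 ± 91.3), HSPA8 (316 ± 109), CRYAB (210 ± 56.6) and HSPD1 (173 ± 17.6) followed. HSPE1 (33.8 ± 7.92) and DNAJB1 (30.3 ± 5.05) were next, and HSPA1B (6.92 ± 0.788) and HSPA1A (5.09 ± 0.658) were lowest. Among neighbours in this order, HSPB1 and HSPB7, HSP90AA1 and HSPA8, HSPA8 and CRYAB, CRYAB and HSPD1, and HSPE1 and DNAJB1 overlapped between libraries.

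In DMEM plus fatty acids the order of CPM per kilobase was nearly the same. HSPB7 (805 ± 107) and HSPB1 (756 ± 205) still led and overlapped. HSPA8 (446 ± 16.1) stood above HSP90AA1 (351 ± 22.9) without overlap, and HSPD1 (185 ± 9.60) overlapped CRYAB (201 ± 70.6). The constitutive HSPA8 thus had a far higher level than the inducible HSPA1A and HSPA1B in both media, but the latter, like HSPE1, are undercounted as described above, and no ratio of true levels can be given.

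**Figure D2:**
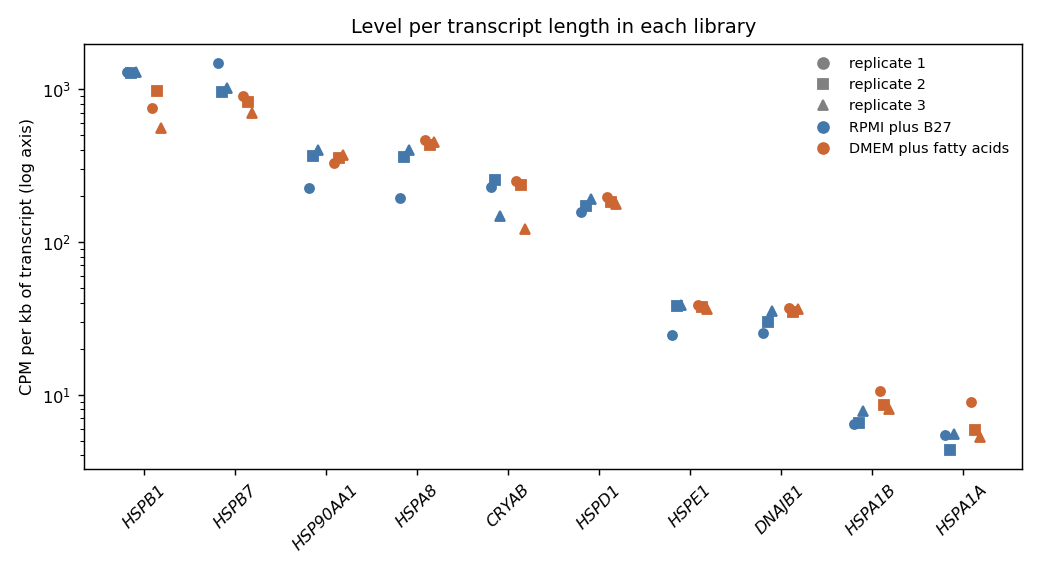
Level of each gene in each library as CPM per kilobase of transcript (vertical axis, logarithmic), ordered by the mean in RPMI plus B27, with blue for RPMI plus B27, orange for DMEM plus fatty acids and symbols for the replicate number. HSPB1 and HSPB7 lie highest in both media, and HSPA1B and HSPA1A lowest.

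HSPB1 (HSP27, chr7:76302544-76304295, plus strand), which binds actin filaments and unfolded proteins, showed the largest difference among the members. It had 1171.8, 1156.5 and 1176.5 CPM in RPMI plus B27 (replicates 1 to 3) and 681.6, 876.8 and 504.3 CPM in DMEM plus fatty acids. All 3 DMEM plus fatty acids libraries lay below all 3 RPMI plus B27 libraries, and the spread was narrow in RPMI plus B27 (coefficient of variation 0.895%) and wide in DMEM plus fatty acids (27.1%). The log2 fold change was -0.76 ± 0.21 (SE), with a 95% interval of -1.25 to -0.28 and an edgeR adjusted p of 0.127. The DESeq2 Wald test gave -0.77 with an adjusted p of 0.0173, and the adjusted p over its 13 alternatives ran from 0.0173 to 0.272. Within replicate numbers the log2 difference was -0.78, -0.40 and -1.22, lower in 3 of 3.

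HSPB1 is also expressed in smooth muscle and stromal cells, whose summed markers were also lower in DMEM plus fatty acids. The summed level of 5 smooth muscle markers was 1948.6, 1784.3 and 1554.7 CPM in RPMI plus B27 (replicates 1 to 3) and 424.4, 1125.4 and 311.2 CPM in DMEM plus fatty acids. Within DMEM plus fatty acids, HSPB1 and this sum had the same order of libraries, with replicate 2 highest and replicate 3 lowest. Within RPMI plus B27 the orders differed, as replicate 3 was lowest for this sum and highest for HSPB1. The summed level of 10 fibroblast and stromal markers ranged from 4334.5 to 8398.5 CPM across the RPMI plus B27 libraries, over which HSPB1 kept within 1156.5 to 1176.5 CPM. The part of other cell types in the HSPB1 difference was not tested. In bulk RNA, fewer cells of a type and less RNA per cell cannot be told apart.

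HSPB7 (cvHSP, chr1:16014028-16019594, minus strand), a small heat shock protein of heart and skeletal muscle that binds filamin C, was the member with the most counts. It had 4254.2, 2779.7 and 2927.3 CPM in RPMI plus B27 and 2614.8, 2371.3 and 2001.3 CPM in DMEM plus fatty acids. The media did not overlap, although RPMI plus B27 replicate 1 stood well above the other 5 libraries and replicate 2 was close to the highest DMEM plus fatty acids library. The log2 fold change was -0.51 ± 0.22 (SE), with a 95% interval of -1.03 to 0.01 and an edgeR adjusted p of 0.289. Without RPMI plus B27 replicate 1 it was -0.29 ± 0.18, so that this library moves the value by more than 1.5 times. Within replicate numbers it was lower in 3 of 3, with log2 differences of -0.70, -0.23 and -0.55. The summed level of 10 cardiomyocyte markers ranged from 28457 to 34010 CPM in RPMI plus B27 and from 22303 to 32051 CPM in DMEM plus fatty acids. It was highest in RPMI plus B27 replicate 1 and lowest in DMEM plus fatty acids replicate 3, as was HSPB7. Within each medium, the remaining libraries had opposite orders for the sum and for HSPB7. RPMI plus B27 replicate 3 had a lower sum than replicate 2 but more HSPB7. DMEM plus fatty acids replicate 2 had a higher sum than replicate 1 but less HSPB7. The part of cardiomyocyte content in the HSPB7 difference was not tested.

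CRYAB (alpha B-crystallin, chr11:111908565-111923722, minus strand), which protects desmin and titin and is mutated in desmin-related myopathy, varied more between replicates than between media. It had 257.2, 284.8 and 163.9 CPM in RPMI plus B27 and 279.7, 261.9 and 134.8 CPM in DMEM plus fatty acids. Replicate 3 was lowest in both media, below each of the other 4 libraries. The log2 fold change was -0.06 ± 0.31 (SE), with a 95% interval of -0.79 to 0.67 and an edgeR adjusted p of 0.938. Within replicate numbers the log2 difference was 0.12, -0.12 and -0.28. The sign of the fold change turned under 4 of 13 alternatives, which include scaling by total counts.

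HSPA1A (chr6:31815464-31817946, plus strand) and HSPA1B (chr6:31827735-31830255, plus strand), both encoding stress-inducible HSP70, were low in every library. HSPA1A had 13.5, 10.8 and 13.7 CPM in RPMI plus B27 and 22.3, 14.5 and 13.0 CPM in DMEM plus fatty acids. HSPA1B had 16.2, 16.4 and 19.7 CPM in RPMI plus B27 and 26.4, 21.5 and 20.4 CPM in DMEM plus fatty acids. DMEM plus fatty acids replicate 1 was highest for both genes, HSPA1A overlapped between media and HSPA1B did not, by a narrow gap. The log2 fold changes were 0.39 ± 0.24 (SE, 95% interval -0.17 to 0.95) for HSPA1A and 0.39 ± 0.16 (95% interval 0.00 to 0.77) for HSPA1B, with edgeR adjusted p-values of 0.440 and 0.281. Summed into a single row, which removes the split of reads between the copies but does not restore reads set aside, they had a log2 fold change of 0.39 ± 0.18 and an edgeR adjusted p of 0.309 (16106 rows). Without DMEM plus fatty acids replicate 1 the values were 0.12 for HSPA1A and 0.26 for HSPA1B.

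DNAJB1 (HSP40, chr19:14514770-14529770, minus strand), the J-domain partner of inducible HSP70, had 57.5, 67.8 and 80.3 CPM in RPMI plus B27 and 83.4, 79.1 and 82.6 CPM in DMEM plus fatty acids. RPMI plus B27 replicate 3 fell within the DMEM plus fatty acids range and the other 2 lay below it. The log2 fold change was 0.25 ± 0.14 (SE), with a 95% interval of -0.07 to 0.58 and an edgeR adjusted p of 0.392. Without RPMI plus B27 replicate 1 it was 0.14, and without RPMI plus B27 replicate 3 it was 0.38. The spread in DMEM plus fatty acids was small, with a coefficient of variation of 2.76% against 16.7% in RPMI plus B27.

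HSPA8 (HSC70, chr11:123057489-123063230, minus strand), the constitutive cytosolic HSP70 that also uncoats clathrin vesicles, had 472.8, 886.2 and 978.3 CPM in RPMI plus B27 and 1135.2, 1056.6 and 1105.4 CPM in DMEM plus fatty acids. All DMEM plus fatty acids libraries lay above all RPMI plus B27 libraries, with RPMI plus B27 replicate 1 far below the rest. Its log2 fold change was the highest of the members, 0.50 ± 0.26 (SE, 95% interval -0.12 to 1.11), with an edgeR adjusted p of 0.376. Without RPMI plus B27 replicate 1 it was 0.24 ± 0.13. Within replicate numbers HSPA8 was higher in 3 of 3, with log2 differences of 1.26, 0.25 and 0.18.

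HSP90AA1 (chr14:102080738-102139699, minus strand), the stress-responsive cytosolic HSP90, had 762.1, 1238.1 and 1340.2 CPM in RPMI plus B27 and 1103.7, 1200.9 and 1256.8 CPM in DMEM plus fatty acids. The DMEM plus fatty acids libraries fell between the lowest and the highest RPMI plus B27 library. The log2 fold change was 0.09 ± 0.22 (SE, 95% interval -0.43 to 0.62), with an edgeR adjusted p of 0.866. It was -0.12 without RPMI plus B27 replicate 1, 0.25 without RPMI plus B27 replicate 3 and 0.20 when scaled by total counts.

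The balance of inducible to constitutive HSP70, as counts of HSPA1A plus HSPA1B relative to HSPA8 within a library, was 6.27%, 3.07% and 3.42% in RPMI plus B27 and 4.29%, 3.41% and 3.02% in DMEM plus fatty acids. The ranges overlapped, and RPMI plus B27 replicate 1 stood highest, the library in which HSPA8 was lowest. The log2 difference of -0.19 had an exact two-sided permutation p of 0.600, where 3 libraries against 3 cannot give a p under 0.1, and was 0.13 without that library.

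HSPD1 (HSP60, chr2:197486581-197516737, minus strand) and HSPE1 (HSP10, chr2:197499994-197503457, plus strand) were nearly level between media. HSPD1 had 383.4, 420.9 and 469.7 CPM in RPMI plus B27 and 481.1, 446.1 and 436.2 CPM in DMEM plus fatty acids. HSPE1 had 23.4, 36.1 and 36.8 CPM in RPMI plus B27 and 36.6, 35.3 and 34.7 CPM in DMEM plus fatty acids. For both genes the media overlapped, and RPMI plus B27 replicate 1 was lowest. The log2 fold changes were 0.10 ± 0.13 (SE, 95% interval -0.20 to 0.40) for HSPD1 and 0.15 ± 0.19 (95% interval -0.29 to 0.58) for HSPE1, with edgeR adjusted p-values of 0.738 and 0.729. Without RPMI plus B27 replicate 1 the values were 0.028 for HSPD1 and -0.038 for HSPE1, and with scaling by total counts 0.20 and 0.25. The HSPD1 interval was the narrowest of the 10, between 0.868 and 1.32 times the RPMI plus B27 level. The ratio of HSPD1 to HSPE1 counts was 16.4, 11.7 and 12.8 in RPMI plus B27 and 13.2, 12.6 and 12.6 in DMEM plus fatty acids (log2 difference -0.07, exact two-sided permutation p 0.800, smallest possible 0.1). That ratio reflects how many HSPE1 reads could be assigned as well as its level. Of these 2 ratios tested, both had a Benjamini-Hochberg adjusted exact permutation p of 0.800. Without RPMI plus B27 replicate 1 the log2 difference of the latter was 0.067.

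**Figure D3:**
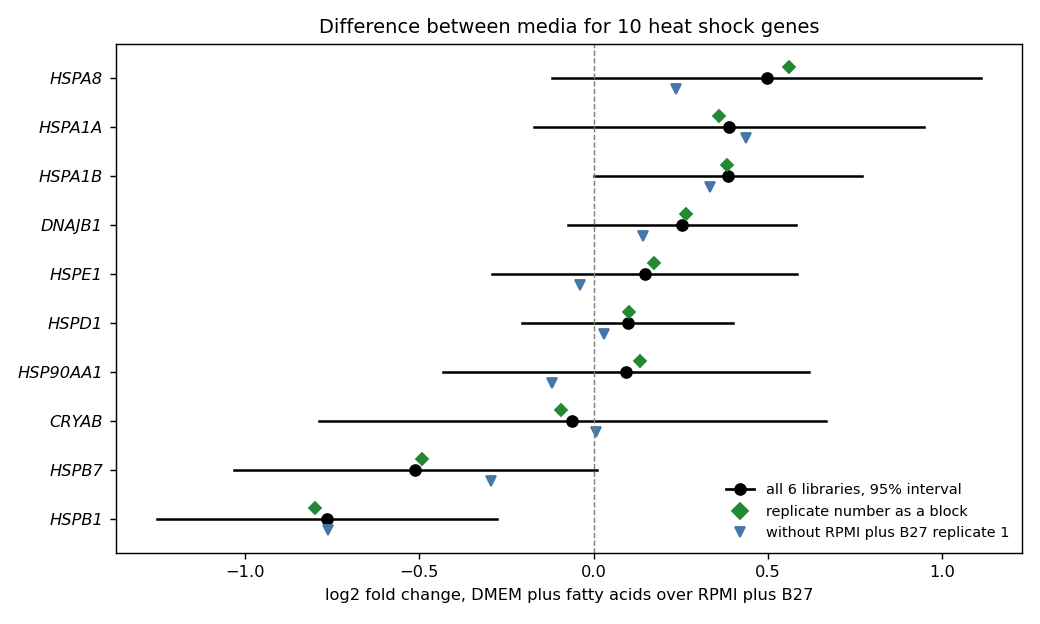
Log2 fold change of each gene, DMEM plus fatty acids relative to RPMI plus B27 (horizontal axis), with black points and 95% intervals from edgeR over all 6 libraries, green diamonds with the replicate number as a block and blue triangles without RPMI plus B27 replicate 1. HSPB1 lies between -0.80 and -0.76 under these fits, while HSPA8 goes from 0.50 to 0.24 and HSPB7 from -0.51 to -0.29 without that library.

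RPMI plus B27 replicate 1 stood apart for much of the family. It was the lowest of the 6 libraries for 6 members (HSPA1B, DNAJB1, HSPA8, HSP90AA1, HSPD1 and HSPE1) and the highest for HSPB7. The same library was lowest for 27.6% and highest for 27.7% of all tested genes, more than any other library in either direction. DMEM plus fatty acids replicate 1 was the highest library for 5 members (HSPA1A, HSPA1B, DNAJB1, HSPA8 and HSPD1) and for 19.5% of all tested genes. Relative to the mean over the 6 libraries, RPMI plus B27 replicate 1 had a log2 level of -0.93 for HSPA8, -0.57 for HSP90AA1, -0.51 for HSPE1 and -0.37 for DNAJB1. RPMI plus B27 replicate 1 also had the highest fibroblast and stromal marker sum (8398.5 CPM), and the part of other cells in these low values was not tested.

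**Figure D4:**
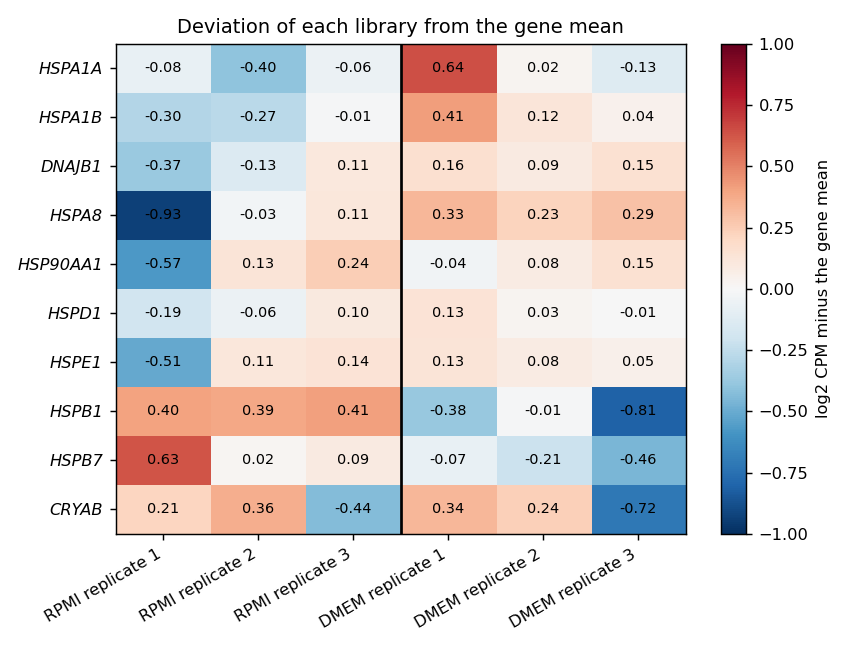
Log2 CPM of each gene in each library minus the mean of that gene over the 6 libraries, with red above and blue below the mean and the black line between media. RPMI plus B27 replicate 1 is low for HSPA8 (-0.93) and HSP90AA1 (-0.57), and CRYAB is low in replicate 3 of both media (-0.44 and -0.72).

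The wider chaperone network, 71 other genes in 8 lists, likewise held no call. Of the 70 tested (CRYAA was too low), 0 passed by edgeR over all genes and 13 had an unadjusted p under 0.05, beside 1.36% and 17.7% of all tested genes. The DESeq2 Wald test called 3 (HSPA6 and DNAJB9 higher, HSPB6 lower), where it called 7.71% of all genes, and limma voom called 0, where it called 1.07%. The median log2 fold change was 0.00, and the media did not overlap for 16 of the 70, beside 25.6% of all tested genes. No gene of the 70 was called with the replicate number as a block, where 4.78% of all tested genes were.

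Among the other HSP70 and HSP110 proteins, 10 of 12 had fitted values above 0 and 5 had an unadjusted p under 0.05. Over all tested genes 49.0% had fitted values below 0 and 17.7% had such a p. HSPA6, a strictly inducible HSP70 whose counts are uncertain because of its close relative HSPA7, had 0.791, 2.04 and 1.27 CPM in RPMI plus B27 and 6.93, 3.41 and 3.32 CPM in DMEM plus fatty acids (log2 fold change 1.73 ± 0.46, SE, edgeR adjusted p 0.120). HSPA9 (mortalin, the mitochondrial HSP70 that works with HSPD1) had 257.9, 293.1 and 316.5 CPM in RPMI plus B27 and 513.3, 397.2 and 367.4 CPM in the other medium (0.56 ± 0.16, edgeR adjusted p 0.152). HYOU1, an HSP110 relative of the endoplasmic reticulum, had a log2 fold change of 1.02 ± 0.40, with 606.0 CPM in DMEM plus fatty acids replicate 1 and 272.7 and 209.7 CPM in the other 2, and 0.43 without that replicate. None of these passed, and for all 3 DMEM plus fatty acids replicate 1 was the highest library.

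Of the J-domain co-chaperones, 8 of 12 had fitted values above 0 and 5 had an unadjusted p under 0.05, to be read beside the same shares of all tested genes. DNAJB9, a J-protein of the endoplasmic reticulum, had a log2 fold change of 1.02 ± 0.25 (edgeR adjusted p 0.0998), while DNAJB2 (-0.52 ± 0.16) and DNAJB4 (-0.48 ± 0.16) lay below 0. DNAJB9 was called by DESeq2 (adjusted p 0.00692) and by edgeR without a filter on low counts (0.0375), and by none of the other 11 alternatives. Of the other small heat shock proteins, HSPB6 (HSP20, of smooth and cardiac muscle) had 17.0, 8.34 and 13.0 CPM in RPMI plus B27 and 2.93, 3.88 and 8.60 CPM in DMEM plus fatty acids (-1.31 ± 0.45, edgeR adjusted p 0.192), with an overlap between media. HSPB2, the divergent neighbour of CRYAB, had a log2 fold change of 0.30 ± 0.39 and HSPB11 of -0.15, both with media that overlapped, and the sign of each turned without DMEM plus fatty acids replicate 1.

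In the remaining lists, the 8 subunits of the cytosolic chaperonin TRiC, which folds actin and tubulin, had log2 fold changes between -0.19 and 0.04. CCT4 (-0.19), CCT8 (-0.16) and CCT7 (-0.19) had the smallest p of these, and scaling by total counts brought them to -0.083, -0.052 and -0.078. The 18 other co-chaperones of HSP70 and HSP90 had a median of -0.04, with FKBP5, a glucocorticoid-responsive partner of HSP90, lowest (-0.76 ± 0.26, edgeR adjusted p 0.189) and BAG1, a nucleotide exchange factor, highest (0.49 ± 0.17, 0.206). FKBP4, another immunophilin that binds HSP90, had -0.15. The 5 heat shock factors and regulators ranged from -1.59 to 0.89. HSF1, the main inducer, had -0.14, and HSF2 had -0.38, which was -0.13 without RPMI plus B27 replicate 1. HSF4 had -1.59 but rested on RPMI plus B27 replicate 1 (8.48 CPM, against at most 1.87 CPM elsewhere) and was -0.12 without it. HSF2BP, a partner of HSF2, had 0.89 at under 1 CPM, and 0.49 without DMEM plus fatty acids replicate 3. Constitutive cytosolic HSP90AB1 had -0.16 and the mitochondrial HSP90 TRAP1 -0.13, while HSP90B1 of the endoplasmic reticulum had 0.40 and -0.24 without DMEM plus fatty acids replicate 1. In the mitochondrial list, CLPP (-0.24) and GRPEL1 (-0.29) followed HSPA9 in order of p.

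**Figure D5:**
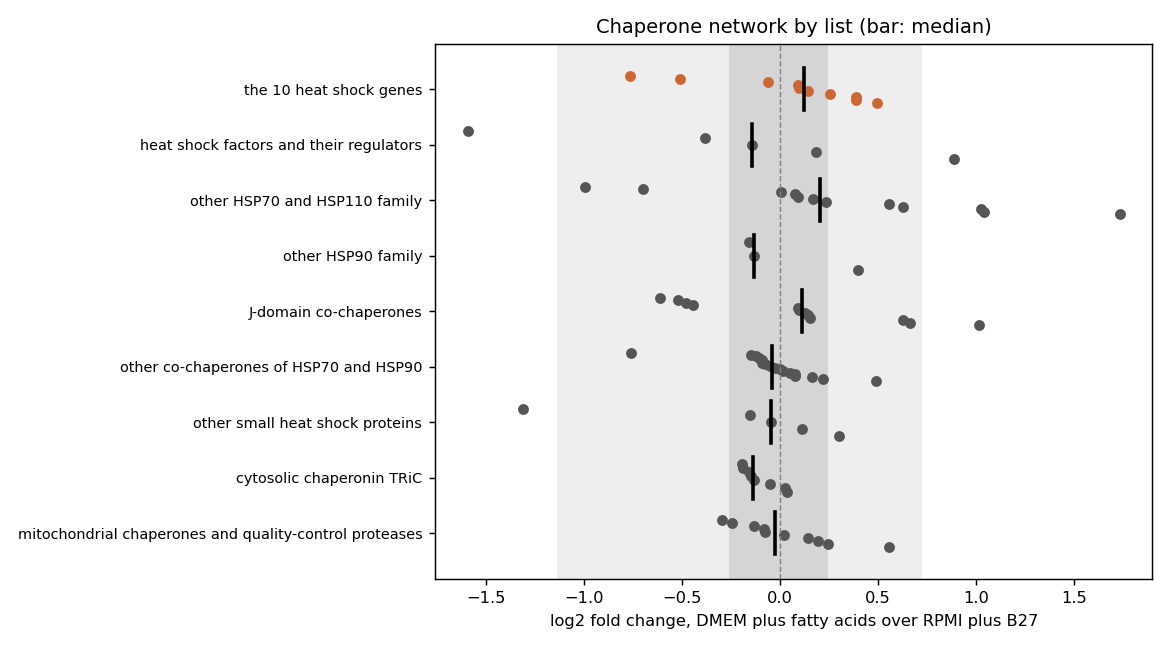
Log2 fold change, DMEM plus fatty acids relative to RPMI plus B27 (horizontal axis), of each tested gene of the chaperone network by list, with the 10 heat shock genes in orange at the top and a black bar at each median. The dark and pale bands hold the middle 50% and 90% of all tested genes, and the medians of the 9 groups lie between -0.14 and 0.20.

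The cultures carried the markers of cardiomyocytes, all 10 of which were detected in every library, and TNNT2 (cardiac troponin T) had a mean of 3185 ± 138 CPM in RPMI plus B27 (SD, n = 3) and 3549 ± 616 CPM in the other medium. By edgeR 0 of these 10 passed, and 3 had an unadjusted p under 0.05. With the replicate block ACTN2 and MYH7 fell. Of the 10, 4 had fitted values above 0, among them MYH6. Its log2 fold change was 0.86 ± 0.27 (SE), with an edgeR adjusted p of 0.166, and of 0.0797 with the block. DESeq2 called more markers of all kinds together (18 against 8). Of 10 fibroblast and stromal markers 6 fell, 3 of them COL1A1, DCN and FBN1, and the summed level was 4334.5 to 8398.5 CPM in RPMI plus B27 and 732.7 to 1944.2 CPM in DMEM plus fatty acids. Of 5 smooth muscle markers LMOD1 fell, and of 5 epicardial markers KRT8 fell. With the replicate block 8 fibroblast and stromal, 2 smooth muscle and 3 epicardial markers fell, and the endothelial marker KDR rose. TEK, the other endothelial marker tested, was not called by edgeR with or without the block. Its log2 fold change was -2.13 with no block and -2.07 with it. For TEK all DMEM plus fatty acids libraries lay below all RPMI plus B27 libraries, and no library exceeded 1.13 CPM. By edgeR with no block, 8 markers were called over all the marker lists. They became 0 without RPMI plus B27 replicate 2, DMEM plus fatty acids replicate 1 or DMEM plus fatty acids replicate 3. They became 1 without RPMI plus B27 replicate 1, 2 without DMEM plus fatty acids replicate 2 and 6 without RPMI plus B27 replicate 3. Of the 5 endothelial markers, 3 (PECAM1, CDH5 and VWF) were under 1 CPM in all libraries, while KDR, which cardiac progenitors also express, had 27.5 to 238.9 CPM in RPMI plus B27 and 114.5 to 463.2 CPM in the other medium. Of the 5 epicardial markers WT1 and UPK3B were under 1 CPM, and KRT19 had 41.6 to 280.9 CPM over the 6 libraries. Of the 4 pluripotency markers POU5F1, NANOG and LIN28A were under 1 CPM, and DNMT3B had 6.29 to 14.9 CPM. How far the mix of cells bears on the values of the heat shock genes was not tested.

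The genes with the most similar profile to 3 members over the 6 libraries were listed as a description. Among 10028 genes whose mean level reached 10 CPM, CRYAB was most like STK38L, FAM78A and DGKI (Pearson's r of log2 CPM 0.988, 0.986 and 0.974), and all 3 were also lowest in replicate 3 of both media. HSPD1 was most like LINC02693, SLTM and VCP (0.998, 0.996 and 0.996). VCP, an ATPase that extracts ubiquitinated proteins, had 391.6 CPM in RPMI plus B27 replicate 1, its lowest, and 586.7 CPM in DMEM plus fatty acids replicate 1, its highest, the same libraries as for HSPD1. DNAJB1 was most like TMEM69, EXOC7 and TEX10 (all 0.996). These are the highest values out of a search over all those genes in 6 libraries, and carry no test.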

How the data were processed

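RNA was sequenced from 6 libraries, grouped by the medium and replicate number in their titles. The authors deposited unnormalized read counts by gene symbol in a separate file for each library. Per the submitters' processing notes, STAR and HTSeq were used with build hg38; versions, annotation and strand setting are not given in the sources used here. The 5 summary rows entered neither the library sizes nor any test. They held no-feature reads (5.44% to 7.57% of all rows), ambiguous reads and reads aligned to several places. Ambiguous reads made up 4.11% to 4.15% in RPMI plus B27 and 3.90% to 3.96% in DMEM plus fatty acids. Reads aligned to several places made up 3.76% to 4.10% in RPMI plus B27 and 3.05% to 3.36% in DMEM plus fatty acids. Neither share overlapped between media. How this bears on the fold changes of HSPA1A, HSPA1B and HSPE1 was not tested.

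The test was that of edgeR 4.0.16 under R 4.3.3 (filterByExpr, minimum count 10 and minimum total 15, TMM, quasi-likelihood test, Benjamini-Hochberg over 16107 genes, threshold 0.05). The biological coefficient of variation was 25.6%. Each SE was derived from the fold change and its F statistic, and 95% intervals use the degrees of freedom of that statistic. Alternatives were the DESeq2 1.42.0 Wald test, limma 3.58.1 voom, RLE and total-count scaling, other filters, a replicate block, leaving out each library and, for HSPA1A and HSPA1B, a summed row. The edgeR fit with and without the replicate block, the DESeq2 fit and the voom fit were tested on simulated data. The other alternatives were not. Ratios within a library used exact permutation tests. Positions and transcript lengths are from GENCODE 29 (GRCh38, the build of the files), in which all 10 symbols were found, and promoter sequences from RefSeq. Where several principal transcripts were annotated, the longest was used.

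The members and lists were chosen with earlier results of these data known. Genes were named by rule: all members, the 3 genes of each list with the smallest p and any called, and up to 3 called markers per cell type. HSF1, TNNT2, MYH6, the markers called only with the block and the endothelial, epicardial and pluripotency markers other than KRT8 fall outside this rule, and were chosen with their values in view. Deviations from the mean of a medium correlated across genes at 0.31, 0.43 and 0.37 for libraries with the same number and at -0.24 to -0.14 otherwise, so the numbers were taken to pair the libraries, although nothing in the labels says what a number marks. No 2 libraries agreed within sampling noise.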

Additional observations from a re-analysis of the deposited data

How the results depend on the processing

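Of the 10 members 8 had at least 622 counts in every library, and HSPA1A had as few as 253. Limits are the spread between 3 libraries a medium and, for HSPA1A, HSPA1B, HSPE1 and possibly CRYAB, an unknown number of reads set aside in counting. The count of members called was 0 in every fit except DESeq2, which called 1. Pathway genes numbered 3 by DESeq2 and 1 without a filter on low counts, and 0 in the other fits. Genes called over the whole table numbered 219, and 1218 by DESeq2, 539 without a filter, 119 with at least 10 counts in every library, and 770 with the replicate block. Leaving out 1 library gave 3 to 131. Marker genes called numbered 8, and 18 by DESeq2, 4 with at least 10 counts in every library and 16 with the replicate block, and 0 to 6 without 1 library. The replicate block changed no call among members or pathway genes. Scaling by total counts moved the median of all genes from 0.01 to 0.12, changed the split of all calls from 47 higher and 172 lower to 74 and 128, and gave 0.031 for CRYAB. Without 1 library, CRYAB ran from -0.26 to 0.21 (0.0061 and 0.098 without RPMI plus B27 replicates 1 and 2, and above 0 without DMEM plus fatty acids replicate 3), HSP90AA1 from -0.12 to 0.25 and HSPE1 from -0.038 to 0.26 (both below 0 without RPMI plus B27 replicate 1). HSP90B1 ran from -0.24 to 0.69, HSPB2 from -0.16 to 0.62 and HSPB11 from -0.44 to 0.0014, each turning without DMEM plus fatty acids replicate 1. The cause was not tested. Without 1 library, the log2 difference of the ratio of HSPA1A plus HSPA1B to HSPA8 ran from -0.39 to 0.13 and that of HSPD1 to HSPE1 from -0.18 to 0.067, each above 0 only without RPMI plus B27 replicate 1. Paired by the replicate block, they were -0.19 and -0.07 (exact sign-flip p 0.5 and 0.75, smallest possible 0.25).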
